A study of Mus musculus with 61 samples.

Results

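The genes described here are 39 genes of the unfolded protein response and of protein folding in the endoplasmic reticulum (ER), given by name and matched by symbol among the 46078 genes of the deposited count table. All 39 were found and all 39 passed the filter on low values, which kept 24004 genes for testing. They comprise 3 stress sensors, 7 transcription factors, 5 targets of the integrated stress response, 5 genes of ER-associated degradation (ERAD), 9 chaperones and cofactors that work with BiP, 7 disulfide and lectin folding genes, and 3 genes of the ER membrane and of entry into it.

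The samples were mouse (C57BL/6) pancreatic ductal organoids, three-dimensional cultures of duct cells grown from adult ducts, in which lentiviral vectors drove Neurogenin3 (Ngn3), Pdx1 and MafA under doxycycline for 8 days. Each vector carried its own reporter (GFP with Ngn3, LSSOrange with Pdx1, tdTomato with MafA), and a further vector supplied the Tet-On 3G transactivator from the PGK promoter. Pools of 50 cells were then sorted by colour and sequenced. The 12 conditions were Pdx1, MafA, Pdx1-MafA, Ngn3-Pdx1, Ngn3-MafA and Ngn3-Pdx1-MafA, each taken from cultures that had received either the wild-type form of Ngn3 (WT) or a phospho-mutant form in which 6 serines were changed to alanine (6SA). Cells without Ngn3 were therefore taken from cultures that had also received Ngn3, and they carried at least 1 other factor. Uninfected cells and cells with Ngn3 alone were not analysed here. Replicates 1 and 2 were at passage 2 and replicate 3 was at passage 5.

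After technical repeats were summed, 32 samples remained, 17 with Ngn3 and 15 without, with 2 samples in Ngn3-Pdx1-MafA 6SA, Pdx1 WT, Pdx1 6SA and MafA WT and 3 in each other condition. Their gene counts ranged from 2579583 to 19461008, so that 3 counts corresponded to between 0.154 and 1.16 counts per 1000000 counts of a sample's total, a limit that covers counting error only. Levels are given as CPM, the count of a gene per 1000000 counts of the tested genes after scaling of the sample by its TMM factor. Neurog3 lay between 0 and 0.788 CPM in the 15 samples without Ngn3 and between 7.87 and 329 CPM in the 17 with it. The endogenous and the vector Pdx1 could not be separated, and Pdx1 in the MafA WT samples (8.33 to 19.3 CPM) overlapped Pdx1 in the Pdx1 WT samples (11.2 to 31.7 CPM). Mafa was 0 to 12.7 CPM in cells sorted for MafA and at most 0.116 CPM in the others. The summed level of 16 endocrine markers was 25.01 to 113 CPM without Ngn3 and 1290 to 16968.5 CPM with it, and that of 15 duct markers was 57172 to 143602 CPM without Ngn3 and 5421 to 52642 CPM with it. Endocrine markers were higher for 16 of 16 and duct markers lower for 11 of 15 by the test used below. Sums of acinar markers (at most 49.7 CPM) and leukocyte markers (at most 44.3 CPM) were low in every sample, whereas markers of mesenchyme and endothelium reached 399 CPM in 1 Ngn3 sample. In pools of cells, fewer cells of a type and less RNA per cell cannot be told apart.

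Secretory cells fold their cargo in the ER, where BiP, the product of Hspa5, holds nascent chains and oxidoreductases form disulfide bonds. When unfolded protein accumulates, the sensors IRE1 (Ern1), PERK (Eif2ak3) and ATF6 are activated. IRE1 splices the Xbp1 transcript, PERK slows translation and raises ATF4 protein, and cleaved ATF6 enters the nucleus, and together they raise chaperones, ERAD and, under lasting stress, Ddit3. The pathway is known in the pancreas because beta cells and acinar cells make large amounts of secreted protein, and counts per gene see neither the splicing of Xbp1 nor the activation or translation of the proteins.

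The question put to the 39 genes was whether they differed between cells with and without Ngn3, with each combination and culture weighted equally. In this comparison 10 of the 39 genes changed, 9 higher and 1 lower, where 21.5% of all 24004 genes tested changed (11.1% higher and 10.5% lower; edgeR quasi-likelihood test, Benjamini-Hochberg adjusted p under 0.05). The share of the 39 genes that changed, 25.6%, was therefore near the share of all genes. The median log2 fold change was 0.17 over the 39 genes and 0.07 over all genes tested. The 9 that rose were Ern1, Eif2ak3, Creb3l1, Atf5, Chac1, Sel1l, Hsp90b1, Ero1lb and Wfs1, and Atf3 fell. They were spread over the functional groups, with 2 of 3 sensors higher, 2 of 7 transcription factors higher and 1 lower, and 1 gene higher in each of the other 5 groups. When libraries were scaled by their totals alone, the median log2 fold change of all genes moved to 0.28, 3623 of 5297 called genes were higher instead of 2658 of 5168, and 16 of the 39 genes were called, 15 of them higher. DESeq2 called 14 of the 39, a count given without the share of all genes that DESeq2 called, so it cannot be set against the 21.5%. With the replicate number as a block, 16 of the 39 were called and 6620 of all genes, and the 6 added were Xbp1 (lower), Atf6, Trib3, Edem1, Dnajc3 and Creb3l2. For none of the 39 did the ranges of CPM with and without Ngn3 stay apart, which was so for 0.692% of all genes.

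**Figure D1:**
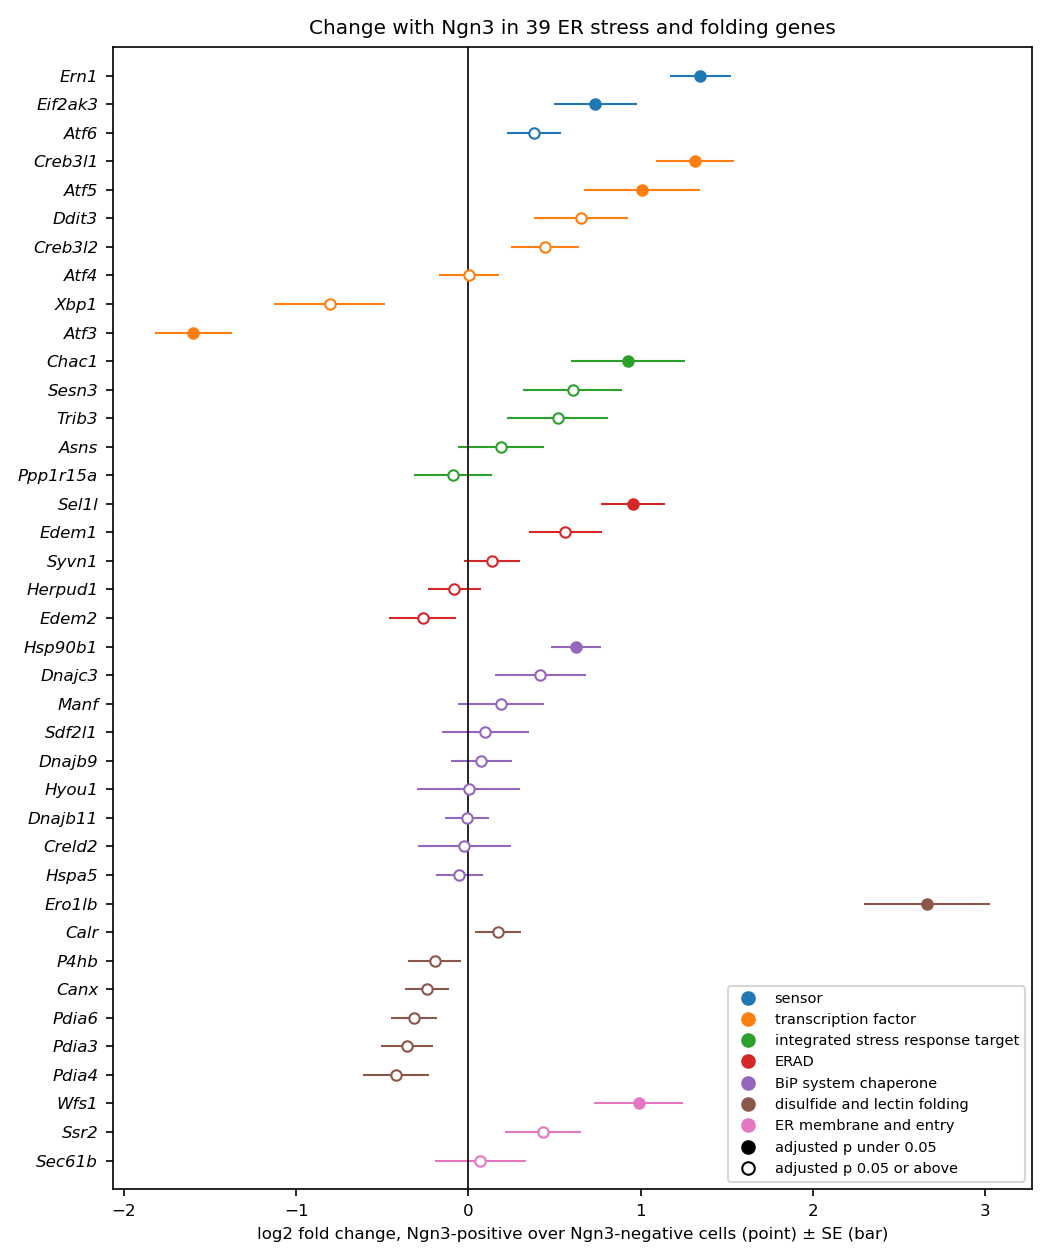
Log2 fold change of each of the 39 genes between cells with and without Ngn3 (horizontal axis, point with standard error bar), grouped and coloured by functional group, with filled points for an adjusted p under 0.05. Ero1lb stood farthest to the right at 2.66 and Atf3 farthest to the left at -1.60, while Hspa5 and most chaperones lay near 0.

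Ern1 encodes IRE1 alpha, the kinase and endoribonuclease that senses unfolded protein (GRCm38 chr11:106394650-106487852, minus strand). Its lowest, median and highest levels were 21.1, 33.0 and 44.4 CPM in the 15 samples without Ngn3 and 44.2, 73.4 and 166 CPM in the 17 samples with Ngn3. The groups met only at their edge, since 16 of the 17 Ngn3 samples exceeded the highest sample without Ngn3, and Ern1 was higher with Ngn3 in all 14 pairs of samples that differed in Ngn3 but shared the other factors, the kind of culture and the replicate number. Such pairs shared a passage, and the labels do not say that they came from 1 culture. Ern1 rose 2.54-fold (log2 fold change 1.35 ± 0.18 SE, edgeR adjusted p = 1.7e-06). By combination, Ern1 was 33.0 and 38.0 CPM in Pdx1 WT, 27.2 and 35.2 CPM in MafA WT, and 35.0, 21.4 and 27.6 CPM in Pdx1-MafA WT. In the matching cells with Ngn3 it was 72.5, 53.3 and 62.8 CPM in Ngn3-Pdx1 WT, 83.7, 79.9 and 70.6 CPM in Ngn3-MafA WT, and 73.4, 116 and 56.4 CPM in Ngn3-Pdx1-MafA WT. Every WT sample with Ngn3 was thus above every WT sample without it. The 6SA samples without Ngn3 gave 41.9 and 28.7 CPM with Pdx1, 44.4, 23.5 and 24.5 CPM with MafA and 39.4, 21.1 and 40.7 CPM with both. The 6SA samples with Ngn3 gave 103, 44.2 and 65.7 CPM beside Pdx1, 94.6, 107 and 74.6 CPM beside MafA, and 68.2 and 166 CPM beside both. Only the 44.2 CPM of Ngn3-Pdx1 6SA replicate 2 reached down to the samples without Ngn3.

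The other sensors had smaller log2 fold changes. Eif2ak3 encodes PERK, the kinase that phosphorylates the translation factor eIF2 alpha (chr6:70844515-70905245, plus strand), and ranged over 15.6, 35.2 and 61.7 CPM (lowest, median, highest) without Ngn3 and 15.8, 59.2 and 209 CPM with it. The ranges overlapped almost fully at the lower end, with 6 Ngn3 samples above the highest sample without Ngn3 and 10 of 14 pairs higher. Eif2ak3 rose 1.67-fold (log2 fold change 0.74 ± 0.24 SE, adjusted p = 0.0255), a call that was lost when any of 4 of the 32 samples was left out, to an adjusted p of at most 0.13 without Ngn3-Pdx1-MafA 6SA replicate 2. It was also lost without all samples of replicate 2 (log2 fold change 0.42, adjusted p = 0.48) or of replicate 3 (0.67, adjusted p = 0.076). Atf6, the sensor that is cleaved in the Golgi to release a transcription factor, was 49.9, 75.7 and 109 CPM without Ngn3 and 62.7, 103 and 165 CPM with it, and did not pass the threshold (0.38 ± 0.16 SE, adjusted p = 0.092). Atf6 passed it when libraries were scaled by the relative log expression method (0.46, adjusted p = 0.030) and with the replicate block (0.35, adjusted p = 0.047). About 8.05% of the exon bases of Eif2ak3 overlap an opposite-strand gene, and the sources used here do not say whether the counting used strand.

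Of the factors directly below the sensors, neither passed the threshold in the reported fit, which had no replicate block. Xbp1 passed it with a block and in some other alternatives. Xbp1, whose spliced form is the IRE1 product, was 179, 841 and 1414 CPM without Ngn3 and 118, 403 and 925 CPM with it, and was lower in 12 of 14 pairs (log2 fold change -0.81 ± 0.32 SE, adjusted p = 0.078). With the replicate number as a block, Xbp1 was lower (-0.75, adjusted p = 0.0020), as it was without a gene filter (-0.79, adjusted p = 0.00034) and without replicate 1 (-0.96, adjusted p = 0.0011), while without replicate 2 it had -0.38 (adjusted p = 0.84). Its level differed by replicate: without Ngn3 it was 179 to 453 CPM in the 6 samples of replicate 1, 841 to 1414 CPM in the 6 of replicate 2 and 829 to 1071 CPM in the 3 of replicate 3. With Ngn3 it was 118 to 419 CPM in replicate 1, 368 to 925 CPM in replicate 2 and 254 to 855 CPM in replicate 3. Without Ngn3, replicate 1 thus stood apart from the others, whereas with Ngn3 the ranges of the replicates overlapped. Atf4, the factor whose translation PERK favours, was 417, 519 and 1061 CPM without Ngn3 and 180.3, 561 and 814 CPM with it, with a log2 fold change of 0.00 ± 0.17 SE. The direction of Atf4 changed with the samples used, as given among the limits.

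Among the other transcription factors, Creb3l1 rose, Atf5 rose and Atf3 fell. Creb3l1 encodes OASIS, a membrane-bound factor of the ER that is released by cleavage like ATF6 (chr2:91982328-92024502, minus strand). It was 15.0, 20.3 and 47.2 CPM without Ngn3 and 19.2, 50.5 and 143 CPM with it, with 11 of 17 Ngn3 samples above the highest sample without Ngn3 and 13 of 14 pairs higher. Creb3l1 rose 2.49-fold (log2 fold change 1.32 ± 0.22 SE, adjusted p = 6.9e-05). It was highest beside MafA, at 115, 143 and 121 CPM in Ngn3-MafA WT and 50.5, 70.4 and 127 CPM in Ngn3-MafA 6SA. In Ngn3-Pdx1 it was 62.6, 23.6 and 27.7 CPM (WT) and 26.5, 50.5 and 65.2 CPM (6SA), and in Ngn3-Pdx1-MafA 25.3, 28.4 and 86.4 CPM (WT) and 19.2 and 48.2 CPM (6SA). Every Ngn3-MafA sample lay above the highest sample without Ngn3, whereas samples with Ngn3 and Pdx1 overlapped the samples without Ngn3. Its relative Creb3l2, also a cleaved ER factor, was higher in 13 of 14 pairs and did not pass the threshold (0.44 ± 0.20 SE, adjusted p = 0.12), though it did with the replicate block (0.53, adjusted p = 0.0046).

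Atf5 is a factor induced by eIF2 alpha phosphorylation (chr7:44812256-44816658, minus strand). It was 1.46, 12.7 and 30.6 CPM without Ngn3 and 9.52, 25.1 and 70.5 CPM with it. The groups overlapped, and Atf5 was higher in all 14 pairs. Atf5 rose 2.01-fold (log2 fold change 1.01 ± 0.34 SE, adjusted p = 0.0298), but the call ended in 6 of 32 fits without 1 sample, with an adjusted p up to 0.095, and also without all samples of replicate 2 or of replicate 3. Ddit3, which encodes the pro-apoptotic factor CHOP, was 15.9, 31.6 and 132 CPM without Ngn3 and 20.1, 64.9 and 115 CPM with it, and did not pass the threshold (0.65 ± 0.27 SE, adjusted p = 0.096).

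Atf3, a stress-responsive repressor and activator of the ATF family, was the one gene of the 39 that fell (chr1:191170296-191218039, minus strand). Its lowest, median and highest levels were 888, 1604 and 2785 CPM without Ngn3 and 117, 605 and 1377 CPM with it. Of the 17 Ngn3 samples 11 lay below the lowest sample without Ngn3, and none of 14 pairs was higher. Atf3 was 3.03-fold lower with Ngn3 (log2 fold change -1.60 ± 0.22 SE, adjusted p = 5e-06). In cells without Ngn3 it was 2091 and 1128 CPM in Pdx1 WT, 1604 and 1471 CPM in MafA WT, and 1644, 1425 and 1291 CPM in Pdx1-MafA WT. In the 6SA cultures it was 2742 and 1382 CPM in Pdx1, 2215, 1749.8 and 2004 CPM in MafA, and 2785, 1303 and 888 CPM in Pdx1-MafA cells. No combination without Ngn3 stood apart from the others. With Ngn3 it was 1216, 573 and 900.0 CPM in Ngn3-Pdx1 WT and 643, 1109.6 and 1377 CPM in Ngn3-Pdx1 6SA. In Ngn3-MafA it was 1138, 798 and 605 CPM (WT) and 904, 494 and 570.5 CPM (6SA), and in Ngn3-Pdx1-MafA 138, 117 and 550.2 CPM (WT) and 149 and 309 CPM (6SA). The lowest 4 samples of all 32 were thus the passage 2 samples with all 3 factors. The summed level of 13 immediate-early and cytosolic heat shock genes, a class that cell dissociation raises as does Atf3, was 5418 to 9069 CPM without Ngn3 and 3073 to 5873 CPM with it, and 7 of the 13 were lower and none higher. The part of these genes' change in the change of Atf3 was not tested.

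Of the 5 targets of the integrated stress response, Chac1 alone passed the threshold. Chac1 degrades glutathione (chr2:119351229-119354381, plus strand) and was 3.39, 20.4 and 118 CPM without Ngn3 and 10.8, 58.0 and 112 CPM with it, higher in 12 of 14 pairs. The highest sample without Ngn3 was above every Ngn3 sample. Chac1 rose 1.90-fold (log2 fold change 0.93 ± 0.33 SE, adjusted p = 0.0456), and only 12 of 32 fits without 1 sample kept this call. Without all samples of replicate 2 its log2 fold change was 0.72 (adjusted p = 0.30). Trib3, a pseudokinase that binds ATF4, had a log2 fold change of 0.52 ± 0.29 SE (adjusted p = 0.25; 0.47 and 0.042 with the replicate block), and Sesn3, a sestrin, one of 0.60 ± 0.29 SE (adjusted p = 0.15). Asns, which makes asparagine, had a log2 fold change of 0.19 ± 0.25 SE, and Ppp1r15a (GADD34), which reverses eIF2 alpha phosphorylation, one of -0.09 ± 0.23 SE.

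ERAD returns misfolded proteins to the cytosol, where they are degraded. Sel1l, the adaptor of the ERAD ubiquitin ligase (chr12:91806043-91849157, minus strand), was 64.0, 113 and 187 CPM without Ngn3 and 119, 194 and 361 CPM with it. The ranges overlapped, with 9 of 17 Ngn3 samples above the highest sample without Ngn3 and all 14 pairs higher. Sel1l rose 1.94-fold (log2 fold change 0.95 ± 0.19 SE, adjusted p = 0.00033) and was called with each of the 32 samples left out in turn, but not with all samples of replicate 2 left out. Syvn1, the ligase that SEL1L binds, had a log2 fold change of 0.13 ± 0.16 SE (44.4 to 123 CPM without and 46.3 to 103 CPM with Ngn3). Edem1, a lectin that directs glycoproteins to ERAD, was higher in 12 of 14 pairs and missed the threshold (0.56 ± 0.21 SE, adjusted p = 0.060), but passed it with the replicate block (0.57, adjusted p = 0.0018). Its paralogue Edem2 had a log2 fold change of -0.27 ± 0.19 SE, and Herpud1, which scaffolds the ligase, one of -0.08 ± 0.15 SE.

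Among the BiP group, Hsp90b1 was the gene that passed the threshold. Hsp90b1 encodes GRP94, the HSP90 paralogue of the ER (chr10:86690209-86705509, minus strand), and was 497, 655 and 833 CPM without Ngn3 and 679.7, 879.8 and 1916 CPM with it. Of the 17 Ngn3 samples, 10 lay above the highest sample without Ngn3. Hsp90b1 rose 1.54-fold (log2 fold change 0.62 ± 0.15 SE, adjusted p = 0.0021) and was called with each of the 32 samples left out in turn, but not with all samples of replicate 1 or of replicate 2 left out. About 10.3% of its exon bases overlap an opposite-strand gene. Hspa5, which encodes BiP itself, was 704, 1127 and 1521 CPM without Ngn3 and 716, 1033 and 1614 CPM with it. These ranges coincided, and its log2 fold change was -0.05 ± 0.14 SE (adjusted p = 1.00). The J-domain cofactors of BiP had log2 fold changes of 0.08 ± 0.18 SE (Dnajb9), -0.01 ± 0.13 SE (Dnajb11) and 0.42 ± 0.27 SE (Dnajc3), of which Dnajc3 passed the threshold with the replicate block (0.50, adjusted p = 0.0064). The exchange factor Hyou1 (0.00 ± 0.30 SE), the BiP partner Sdf2l1 (0.10 ± 0.25 SE), the secreted stress factor Manf (0.19 ± 0.25 SE) and the disulfide isomerase Creld2 (-0.03 ± 0.27 SE) were not called either. The signs of Hspa5, Dnajb11, Creld2, Herpud1, Ppp1r15a and P4hb changed with the scaling of the libraries.

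The disulfide and lectin group held the gene with the largest rise and several genes with negative fold changes. Ero1lb (Ero1b in RefSeq) encodes ERO1 beta, the oxidase that recharges protein disulfide isomerase and that is abundant in the pancreas (chr13:12565874-12611396, plus strand). It was 0.871, 6.48 and 17.9 CPM without Ngn3, where the lowest value rested on 5 counts, and 6.68, 31.4 and 148 CPM with Ngn3. Of the 17 Ngn3 samples, 12 lay above the highest sample without Ngn3, and 13 of 14 pairs were higher. Ero1lb rose 6.33-fold (log2 fold change 2.66 ± 0.37 SE, adjusted p = 3.5e-06). In cells without Ngn3 it was 7.12 and 9.78 CPM in Pdx1 WT, 2.25 and 6.48 CPM in MafA WT and 5.82, 0.871 and 12.3 CPM in Pdx1-MafA WT, and in the 6SA cultures 8.68 and 8.44, then 10.9, 3.57 and 17.9, then 1.77, 2.89 and 4.72 CPM in the same order. With Ngn3 it was 28.3, 28.0 and 8.04 CPM in Ngn3-Pdx1 WT, 25.7, 31.4 and 15.7 CPM in Ngn3-MafA WT and 83.3, 79.0 and 15.4 CPM in Ngn3-Pdx1-MafA WT. The corresponding 6SA samples were at 35.8, 38.2 and 6.68 CPM, 48.1, 60.95 and 14.4 CPM, and 95.5 and 148 CPM. The 4 highest values of all 32 samples were those of the passage 2 samples with all 3 factors, and the lowest Ngn3 sample of each condition with 3 samples was replicate 3.

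None of the other 6 disulfide and lectin genes passed the threshold. Their log2 fold changes were -0.36 ± 0.15 SE for Pdia3 (adjusted p = 0.10), -0.42 ± 0.19 SE for Pdia4 (adjusted p = 0.13) and -0.32 ± 0.13 SE for Pdia6 (adjusted p = 0.092), which are protein disulfide isomerases. P4hb, the founding isomerase of that family, had one of -0.20 ± 0.15 SE, and the lectin chaperones Canx and Calr had -0.24 ± 0.13 SE and 0.17 ± 0.13 SE. Pdia3 and Pdia6 were lower in 12 of 14 pairs each. Pdia3 lay between 785 and 1496 CPM without Ngn3 and between 536 and 1485 CPM with it, ranges that overlapped over most of their length.

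In the last group Wfs1 rose. Wfs1 encodes wolframin, the ER membrane protein that is lost in Wolfram syndrome, a form of diabetes (chr5:36966104-36989205, minus strand). It was 18.7, 42.9 and 92.0 CPM without Ngn3 and 51.9, 96.5 and 173 CPM with it. The ranges overlapped, with 10 of 17 Ngn3 samples above the highest sample without Ngn3, and all 14 pairs were higher. Wfs1 rose 1.98-fold (log2 fold change 0.99 ± 0.26 SE, adjusted p = 0.0059), a call that was lost, among the alternatives run, only without all samples of replicate 2. Without Ngn3 it also differed by replicate, at 72.4 to 92.0 CPM in the 6 samples of replicate 1 and 21.0 to 42.9 CPM in the 6 of replicate 2. Ssr2, a subunit of the translocon-associated complex, had a log2 fold change of 0.43 ± 0.22 SE (adjusted p = 0.19), and Sec61b, a subunit of the translocation channel, one of 0.07 ± 0.26 SE.

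**Figure D2:**
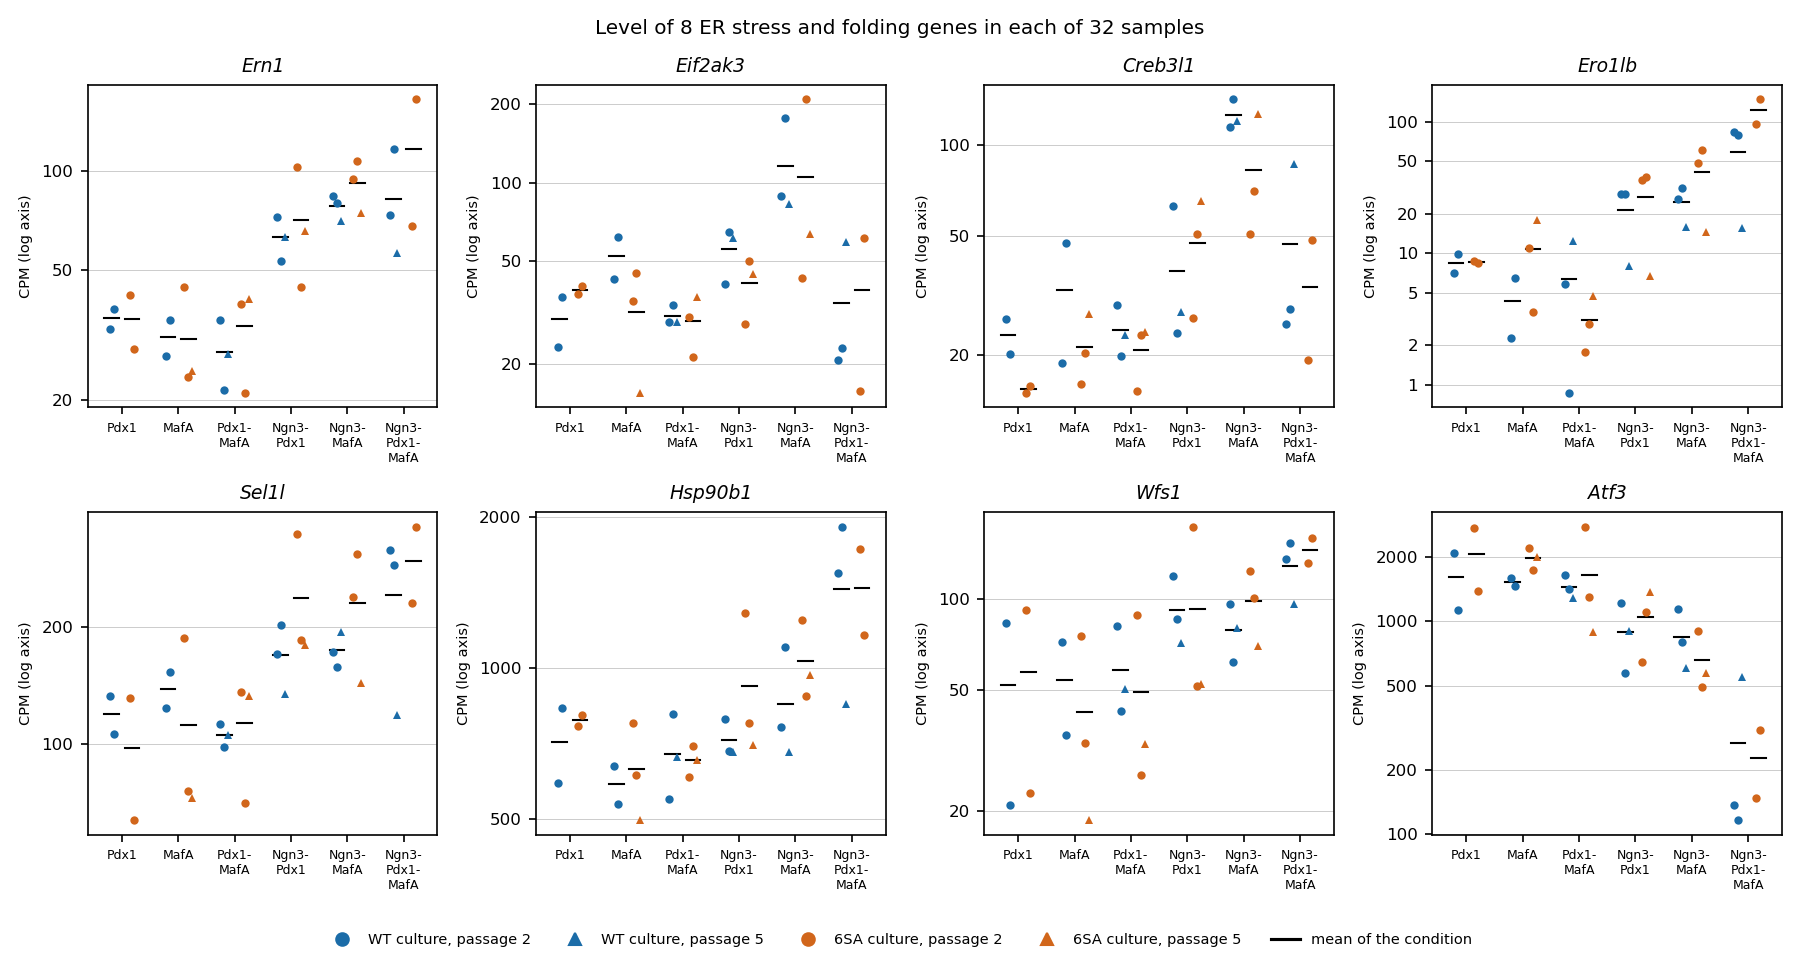
CPM (log axis) of 8 of the genes in each of the 32 samples by factor combination, with WT cultures in blue, 6SA cultures in orange, circles for passage 2, triangles for passage 5 and a line at each condition's mean. Ern1 separates samples with and without Ngn3 in nearly every combination, Ero1lb is highest in passage 2 samples with all 3 factors (79.0 to 148 CPM), and Atf3 is lowest in the same samples (117 to 309 CPM).

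The DNA before the start sites of these genes is shown because several of them carry the ER stress response element (ERSE), to which ATF6 binds with the factor NF-Y and which XBP1 also recognises. RefSeq windows of GRCm38.p6, 250 bases before to 50 bases after each start, were matched for 34 of the 39 genes (35 windows). Atf6, Creb3l1, Manf, Hyou1 and Ssr2 had no window in the table used. The ERSE, spelled as CCAAT, then 9 bases of any kind, then CCACG, was searched on both strands and found in 9 of the 35 windows (25.7%) and in 39 of all 32851 windows (0.119%). Of the 9 genes, Hsp90b1 and Ero1lb rose with Ngn3, and Syvn1, Hspa5, Dnajc3, Creld2, Pdia6, Calr and Canx did not pass the threshold in the fit without a block. The element was thus present before the gene of BiP, which was not called, as well as before Ero1lb. Each line gives the element in capitals with its flanks, read 5′ to 3′ on the strand of the gene, and sites on the opposite strand read as the reverse complement.
Syvn1 (chr19:6046512-6046570, plus strand): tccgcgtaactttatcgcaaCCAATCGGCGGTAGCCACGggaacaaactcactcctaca
Hspa5 (chr2:34772005-34772063, plus strand): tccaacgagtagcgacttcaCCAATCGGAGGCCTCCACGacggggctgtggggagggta
Dnajc3 (chr14:118937807-118937865, plus strand): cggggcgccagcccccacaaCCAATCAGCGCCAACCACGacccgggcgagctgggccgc
Hsp90b1 (chr10:86705618-86705676, minus strand, the site farther from the start): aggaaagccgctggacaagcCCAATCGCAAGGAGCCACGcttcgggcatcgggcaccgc
Hsp90b1 (chr10:86705513-86705571, minus strand, the site nearer to the start): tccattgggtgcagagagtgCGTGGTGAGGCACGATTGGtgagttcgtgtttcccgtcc
Creld2 (chr15:88819500-88819558, plus strand): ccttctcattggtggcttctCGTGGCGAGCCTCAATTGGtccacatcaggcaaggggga
Pdia6 (chr12:17266471-17266529, plus strand): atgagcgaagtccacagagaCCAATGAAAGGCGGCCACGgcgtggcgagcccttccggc
Ero1lb (chr13:12565662-12565720, plus strand): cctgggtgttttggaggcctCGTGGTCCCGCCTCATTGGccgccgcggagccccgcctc
Calr (chr8:84847055-84847113, minus strand): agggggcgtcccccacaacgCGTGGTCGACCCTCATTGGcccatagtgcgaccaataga
Canx (chr11:50325780-50325838, minus strand): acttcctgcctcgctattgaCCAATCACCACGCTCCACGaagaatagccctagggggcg

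A second element, the amino acid or C/EBP-ATF response element spelled here as TTGCATCA, is a target of ATF4 and its partners. It was found on either strand in 3 of the 35 windows, those of Atf3, Chac1 and Herpud1, and in 0.895% of all windows. Atf3 fell, Chac1 rose and Herpud1 was not called. The sites are printed with the element in capitals.
Atf3 (chr1:191183416-191183463, minus strand): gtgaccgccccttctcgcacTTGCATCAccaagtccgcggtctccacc
Chac1 (chr2:119351029-119351076, plus strand): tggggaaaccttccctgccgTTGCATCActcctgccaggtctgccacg
Herpud1 (chr8:94386297-94386344, plus strand): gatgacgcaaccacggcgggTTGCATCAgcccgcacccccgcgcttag

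The UPR element TGACGTGG, whose last 5 letters are the reverse complement of the end of the ERSE, was not found in the windows of the 39 genes and was in 0.676% of all windows. The E-box CAGATG, one of the hexamers that proneural factors such as Ngn3 bind, was in 6 of the 35 windows (17.1%) and in 17.2% of all windows. The 250 bases before the starts of the gene with the largest rise and of the gene that fell are given in full, with the ERSE in capitals for Ero1lb and the ATF response element and 1 E-box (in reverse complement) in capitals for Atf3. A match of letters is a description and was not tested for binding.
Ero1lb (chr13:12565633-12565882, plus strand): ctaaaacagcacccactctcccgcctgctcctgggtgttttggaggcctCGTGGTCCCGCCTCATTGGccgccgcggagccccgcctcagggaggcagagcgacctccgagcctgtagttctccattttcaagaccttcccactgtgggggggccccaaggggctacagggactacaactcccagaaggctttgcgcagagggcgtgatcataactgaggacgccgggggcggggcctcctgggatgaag
Atf3 (chr1:191183334-191183583, minus strand): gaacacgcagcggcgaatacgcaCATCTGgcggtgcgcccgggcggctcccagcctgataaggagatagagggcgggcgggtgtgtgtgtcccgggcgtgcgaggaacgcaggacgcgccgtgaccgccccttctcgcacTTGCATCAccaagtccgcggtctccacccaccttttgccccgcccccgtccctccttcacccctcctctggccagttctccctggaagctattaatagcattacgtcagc

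The factors that accompanied Ngn3 were compared next, with both cultures weighted equally. Beside Pdx1 alone, Ngn3 changed none of the 39 genes by edgeR (1.49% of all genes), while 6 had an unadjusted p under 0.05 and DESeq2 called Ern1 and Creb3l1. Ern1 had a log2 fold change of 0.92 ± 0.31 SE (adjusted p = 0.18), Creb3l1 one of 1.17 ± 0.41 SE (adjusted p = 0.19) and Sel1l one of 0.89 ± 0.34 SE (adjusted p = 0.24) there. Beside MafA, 4 of the 39 rose and none fell (4.67% of all genes changed, 2.5% higher and 2.17% lower): Creb3l1 by 3.88-fold (1.96 ± 0.40 SE, adjusted p = 0.0025), Ern1 by 2.73-fold (1.45 ± 0.30 SE, adjusted p = 0.0033), Ero1lb by 4.70-fold (2.23 ± 0.62 SE, adjusted p = 0.033) and Eif2ak3 by 2.71-fold (1.44 ± 0.42 SE, adjusted p = 0.042). All 4 calls were lost without MafA WT replicate 1, 1 of 2 samples of its condition, with adjusted p of 0.051 for Ern1 and 0.056 for Creb3l1. With the replicate block 11 of the 39 were called, the same 4 among them. The share of all genes called with the block is not given here, so the 11 cannot be set against it. Single samples ended the Ero1lb call in 8 of 11 cases and the Eif2ak3 call in 6 of 11.

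Beside Pdx1 and MafA together, Ngn3 changed 6 of the 39 genes, 5 higher and 1 lower, where 17.8% of all genes changed (9.42% higher and 8.4% lower), so that the share was again near that of all genes. Ero1lb rose 19.1-fold (4.26 ± 0.62 SE, adjusted p = 2.2e-05), Ern1 3.18-fold (1.67 ± 0.29 SE, adjusted p = 0.00019) and Sel1l 2.44-fold (1.29 ± 0.31 SE, adjusted p = 0.0042). Hsp90b1 rose 2.17-fold (1.12 ± 0.24 SE, adjusted p = 0.0019), from 547, 812 and 664.5 CPM in Pdx1-MafA WT and 607, 700.3 and 655 CPM in Pdx1-MafA 6SA to 1545, 1916 and 849.8 CPM and 1732 and 1163 CPM with Ngn3 added. Every sample with all 3 factors was above every Pdx1-MafA sample. Atf3 was 6.27-fold lower (-2.65 ± 0.42 SE, adjusted p = 5.9e-05). These 5 calls held with each of the 11 samples left out in turn, whereas that of Wfs1 (1.34 ± 0.43 SE, adjusted p = 0.031) held in 3 of 11. The 3 comparisons of Ngn3 are reported side by side, since passing the threshold in one and not in another does not show a difference.

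Whether the effect of Ngn3 differed with a second factor was tested directly. The interaction of Ngn3 and MafA beside Pdx1 was past the threshold for none of the 39 genes by edgeR and for 0.0958% of all genes, with 4 of the 39 at an unadjusted p under 0.05 and none called by DESeq2. Ero1lb had the lowest p of the 39 (interaction 2.76 ± 0.82 SE on the log2 scale, adjusted p = 0.29), followed by Atf3 (-1.73 ± 0.56 SE, adjusted p = 0.37) and Hsp90b1 (1.00 ± 0.35 SE, adjusted p = 0.45). The interaction of Ngn3 and Pdx1 beside MafA was likewise past the threshold for none of the 39 (0.05% of all genes, 4 of the 39 at an unadjusted p under 0.05, none called by DESeq2). Sdf2l1 was lowest there (1.61 ± 0.61 SE, adjusted p = 0.37), and Ero1lb had 2.02 ± 0.81 SE (adjusted p = 0.41).

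**Figure D3:**
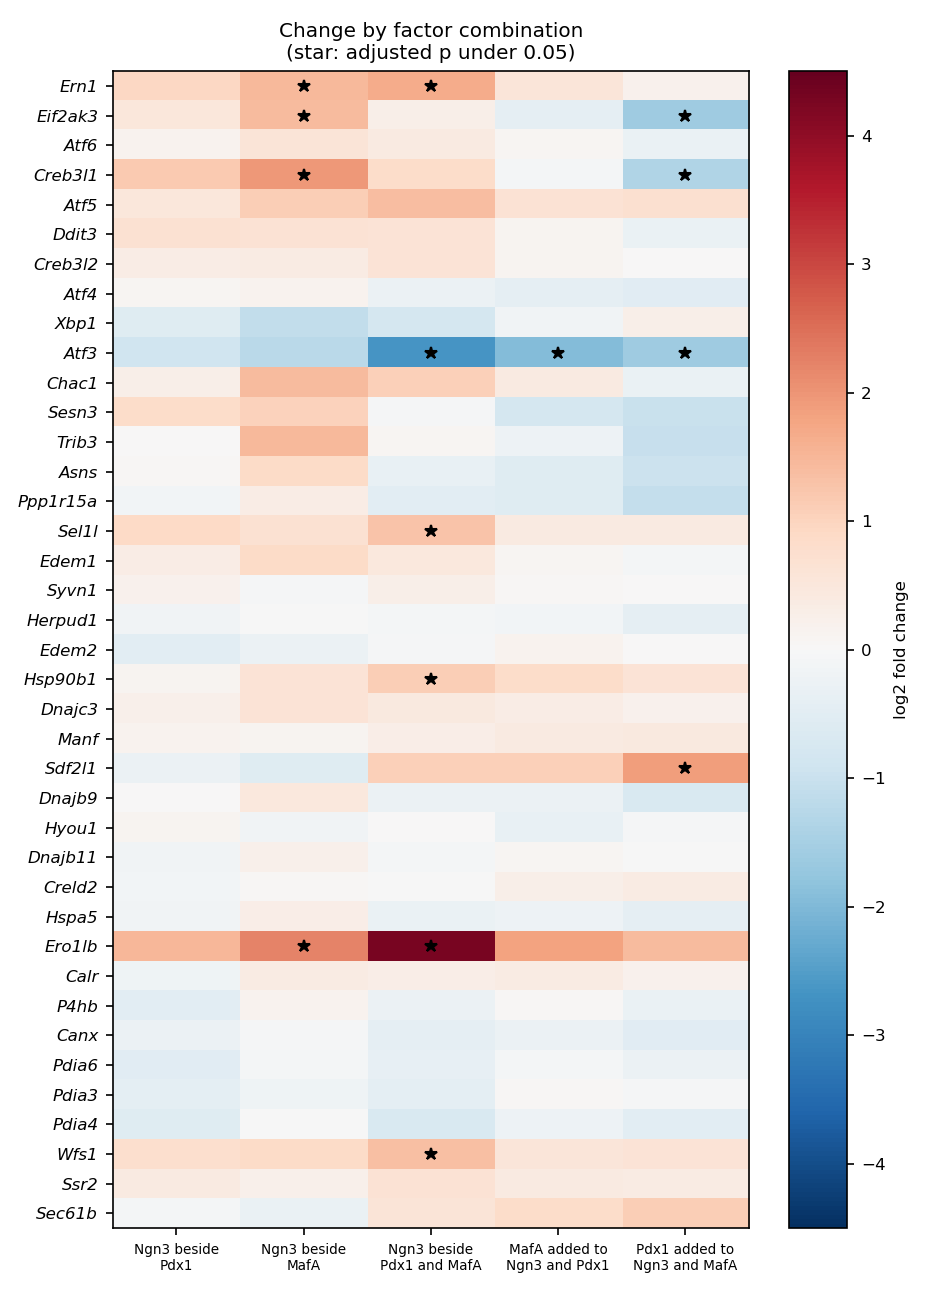
Log2 fold change (colour) of each of the 39 genes, ordered by functional group, in 5 comparisons of factor combinations, with a star where the adjusted p was under 0.05. No star stands in the column of Ngn3 beside Pdx1, 4 stand in that of Ngn3 beside MafA and 6 in that of Ngn3 beside Pdx1 and MafA, and the darkest cell is Ero1lb in the last of these at 4.26.

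The addition of MafA or Pdx1 to cells that already had Ngn3 and the other factor compares the same Ngn3-Pdx1-MafA samples in both cases. MafA added to Ngn3 and Pdx1 changed 1 of the 39 genes, where 1.88% of all genes changed (1.35% lower). Atf3 was 3.90-fold lower (-1.96 ± 0.40 SE, adjusted p = 0.0080), with the samples given above ranging from 573 to 1377 CPM without MafA and from 117 to 550.2 CPM with it, which did not overlap. The call was lost without Ngn3-Pdx1-MafA 6SA replicate 1 (adjusted p = 0.092). Hsp90b1 (0.83 ± 0.24 SE, adjusted p = 0.079) and Ero1lb (1.82 ± 0.57 SE, adjusted p = 0.10) did not pass the threshold. With the replicate block 2 genes were called, Atf3 and Hsp90b1.

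Pdx1 added to Ngn3 and MafA changed 4 of the 39 genes, 1 higher and 3 lower, where 2.72% of all genes changed (1.17% higher and 1.56% lower). Sdf2l1, which binds misfolded proteins together with BiP and its J-domain cofactor, was the one that rose (chr16:17130138-17132383, minus strand). It was 15.2, 21.1 and 21.9 CPM in Ngn3-MafA WT and 32.7, 31.98 and 17.6 CPM in Ngn3-MafA 6SA, against 92.8, 125 and 24.3 CPM in Ngn3-Pdx1-MafA WT and 144 and 35.5 CPM in Ngn3-Pdx1-MafA 6SA. The groups overlapped through 1 passage 5 sample of 24.3 CPM. Sdf2l1 rose 3.69-fold (1.88 ± 0.43 SE, adjusted p = 0.019). Eif2ak3 was 3.03-fold lower (-1.60 ± 0.42 SE, adjusted p = 0.036), from 88.8, 177 and 82.9 CPM (WT) and 42.8, 209 and 63.3 CPM (6SA) to 20.8, 23.1 and 59.2 CPM (WT) and 15.8 and 61.4 CPM (6SA). Its groups overlapped in the 42.8 CPM of Ngn3-MafA 6SA replicate 1. Atf3 was 3.01-fold lower (-1.59 ± 0.40 SE, adjusted p = 0.028) and Creb3l1 2.58-fold lower (-1.37 ± 0.38 SE, adjusted p = 0.0499). None of these 4 calls remained without Ngn3-Pdx1-MafA 6SA replicate 1 or without Ngn3-Pdx1-MafA WT replicate 2, and with each of 11 samples left out in turn Sdf2l1 kept its call in 8, Eif2ak3 in 6, Atf3 in 4 and Creb3l1 in 2.

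**Figure D4:**
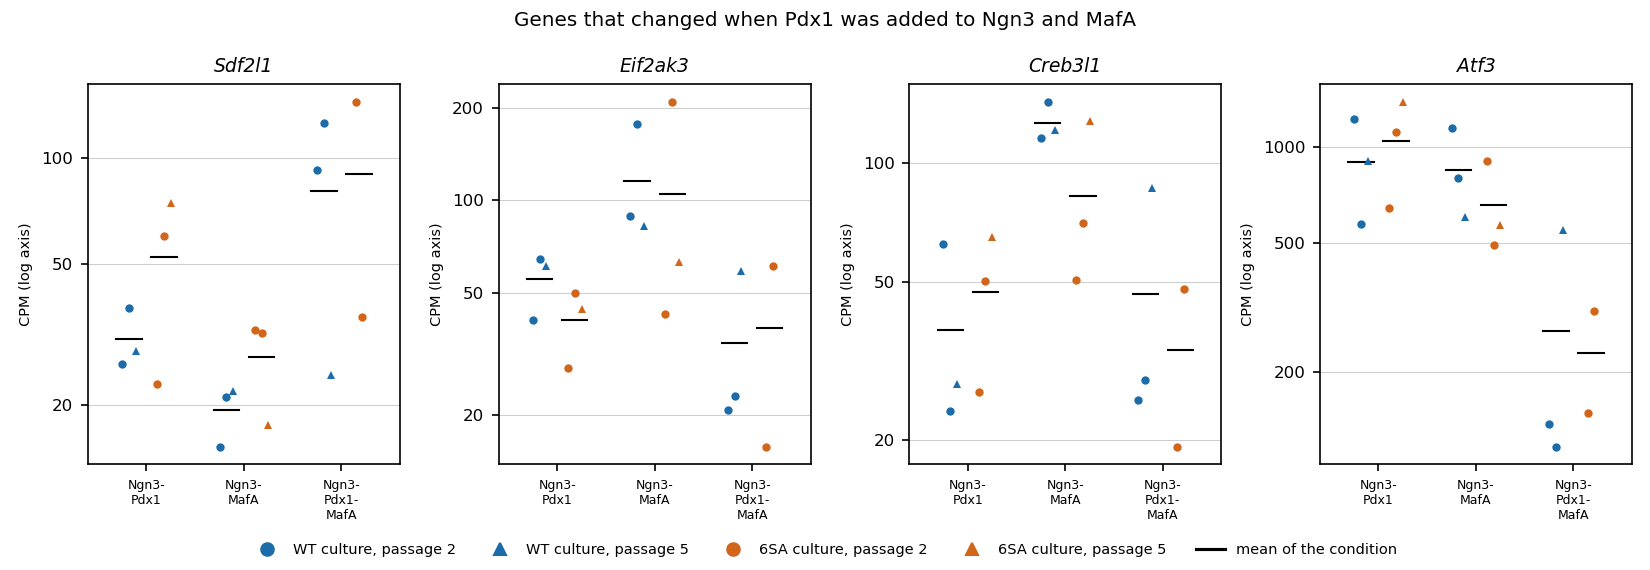
CPM (log axis) of Sdf2l1, Eif2ak3, Creb3l1 and Atf3 in the 17 samples with Ngn3, with symbols for culture and passage as given in the legend and a line at each condition's mean. The passage 2 samples of Ngn3-Pdx1-MafA WT reach 92.8 and 125 CPM of Sdf2l1, and the passage 5 sample of that condition, at 24.3 CPM, lies with the other combinations.

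Without Ngn3 neither addition moved the 39 genes past the threshold. MafA added to Pdx1 and Pdx1 added to MafA each gave 0 of the 39 by edgeR (0% of all genes), 0 at an unadjusted p under 0.05 and 0 by DESeq2. The largest of these differences was that of Ero1lb with MafA added to Pdx1 (-0.93 ± 0.60 SE, unadjusted p = 0.13).

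The 6SA and WT forms of Ngn3 were compared in cells that carried them. None of the 39 genes passed the threshold by edgeR (0% of all genes), none had an unadjusted p under 0.05 and none was called by DESeq2. The lowest p belonged to Dnajb11 (0.30 ± 0.17 SE, adjusted p = 0.88), Ero1lb (0.71 ± 0.45 SE, adjusted p = 0.91) and Sel1l (0.39 ± 0.25 SE, adjusted p = 0.91). Cells without Ngn3 from the 6SA and WT cultures likewise gave 0 of the 39 in each of these 3 ways (0% of all genes by edgeR), with Atf5 at -0.74 ± 0.48 SE and Creb3l1 at -0.49 ± 0.32 SE.

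Ern1, Ero1lb, Creb3l1 and Atf3 changed in the same direction in the cultures of each kind. Ngn3 changed 4 of the 39 genes in WT cultures (8.59% of all genes, 4.23% higher and 4.36% lower), with Ern1 2.35-fold, Ero1lb 5.14-fold and Creb3l1 2.30-fold higher and Atf3 2.60-fold lower. In 6SA cultures it changed 7 of the 39 (14.1% of all genes, 8.12% higher and 5.98% lower), with Ern1 2.75-fold, Ero1lb 7.80-fold, Sel1l 2.35-fold, Creb3l1 2.69-fold, Hsp90b1 1.62-fold and Wfs1 2.21-fold higher and Atf3 3.52-fold lower. With the replicate block 10 were called in the WT and 11 in the 6SA cultures, with the 4 and the 7 among them. The shares of all genes given above are from the fit without the block and are no background for these counts. Sel1l in WT cultures had 0.68 ± 0.26 SE (adjusted p = 0.12) and Hsp90b1 0.55 ± 0.21 SE (adjusted p = 0.11). With each of 16 samples left out in turn, Creb3l1 kept its call in 14 in the WT cultures (adjusted p = 0.096 without MafA WT replicate 1), and in the 6SA cultures Hsp90b1 kept its call in 12 (adjusted p = 0.080 without Ngn3-Pdx1-MafA 6SA replicate 1) and Wfs1 in 6 (adjusted p = 0.15 without Pdx1 6SA replicate 2). The difference between the cultures, tested as an interaction, passed the threshold for none of the 39 by edgeR or DESeq2 (0% of all genes by edgeR), and none had an unadjusted p under 0.05. The lowest p was that of Sel1l (0.55 ± 0.36 SE on the log2 scale, unadjusted p = 0.14).

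Ero1lb was singled out by passage after its values were seen, as the one gene of the 39 whose Ngn3 samples of passage 2 and passage 5 did not overlap. With Ngn3 it was 25.7 to 148 CPM in the 12 samples of passage 2 and 6.68 to 15.7 CPM in the 5 samples of passage 5. Without Ngn3 it was 0.871 to 10.9 CPM in 12 samples of passage 2 and 4.72 to 17.9 CPM in 3 samples of passage 5. The summed level of the endocrine markers also split the Ngn3 samples by passage. It was 4194 to 16968.5 CPM in passage 2 and 1290 to 2813 CPM in passage 5. Whether Ero1lb followed these markers was not tested. The median log2 difference of Ero1lb within pairs was 2.58 over the 12 pairs of passage 2, all of them higher with Ngn3. It was 0.00 over the 2 pairs of passage 5, 1 of them higher. Without replicate 3, the log2 fold change of Ero1lb across all combinations was 3.31 (adjusted p = 4.4e-08) instead of 2.66. Passage 5 and replicate 3 cannot be told apart, and 1 library of passage 5 that was left out for its low count, Ngn3-Pdx1-MafA 6SA replicate 3, had 94 counts of Ero1lb, which is 230 CPM of its total. In the same 2 pairs of passage 5, Ern1, Creb3l1, Sel1l, Hsp90b1, Wfs1, Eif2ak3 and Atf5 were higher with Ngn3 in both and Atf3 was lower in both. Chac1, also called across all combinations, was higher in 1 of these 2 pairs, with a median log2 difference of -0.037. Ern1 had a median log2 difference of 1.29 there and Atf3 one of -1.52.

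The spread between repeat pools of 50 cells from the same replicate was as large as that between replicates for some of the genes. Over 20 pools of 8 replicates with Ngn3, the standard deviation of log2 CPM within a replicate was 0.64 for Ern1 (0.62 between replicates), 0.68 for Wfs1 (0.58) and 0.51 for Sel1l (0.52). It was 0.52 for Ero1lb (1.06 between replicates) and 0.50 for Atf3 (0.76). Without Ngn3, over 23 pools of 9 replicates, the within-replicate value was 0.39 for Ern1 and 0.23 for Atf3.

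To compare genes with each other, CPM was divided by the exon length of the gene in kb and averaged over the 12 conditions. On this scale Atf3 was the highest of the 39 at 551 CPM per kb (798 without and 305 with Ngn3), followed by P4hb at 420.1, Pdia3 at 334 and Hspa5 at 257 CPM per kb. The sensors were low, at 9.44 (Atf6), 8.34 (Eif2ak3) and 7.11 CPM per kb (Ern1), and Ero1lb (4.21) and Sesn3 (1.25) were the lowest. Ero1lb was at 1.04 CPM per kb without Ngn3 and 7.39 CPM per kb with it, so that even after its rise it remained well under the isomerases it serves. The summed level of the 39 genes was 9600 to 14122 CPM without Ngn3 and 8035 to 13696 CPM with it, which overlapped.

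**Figure D5:**
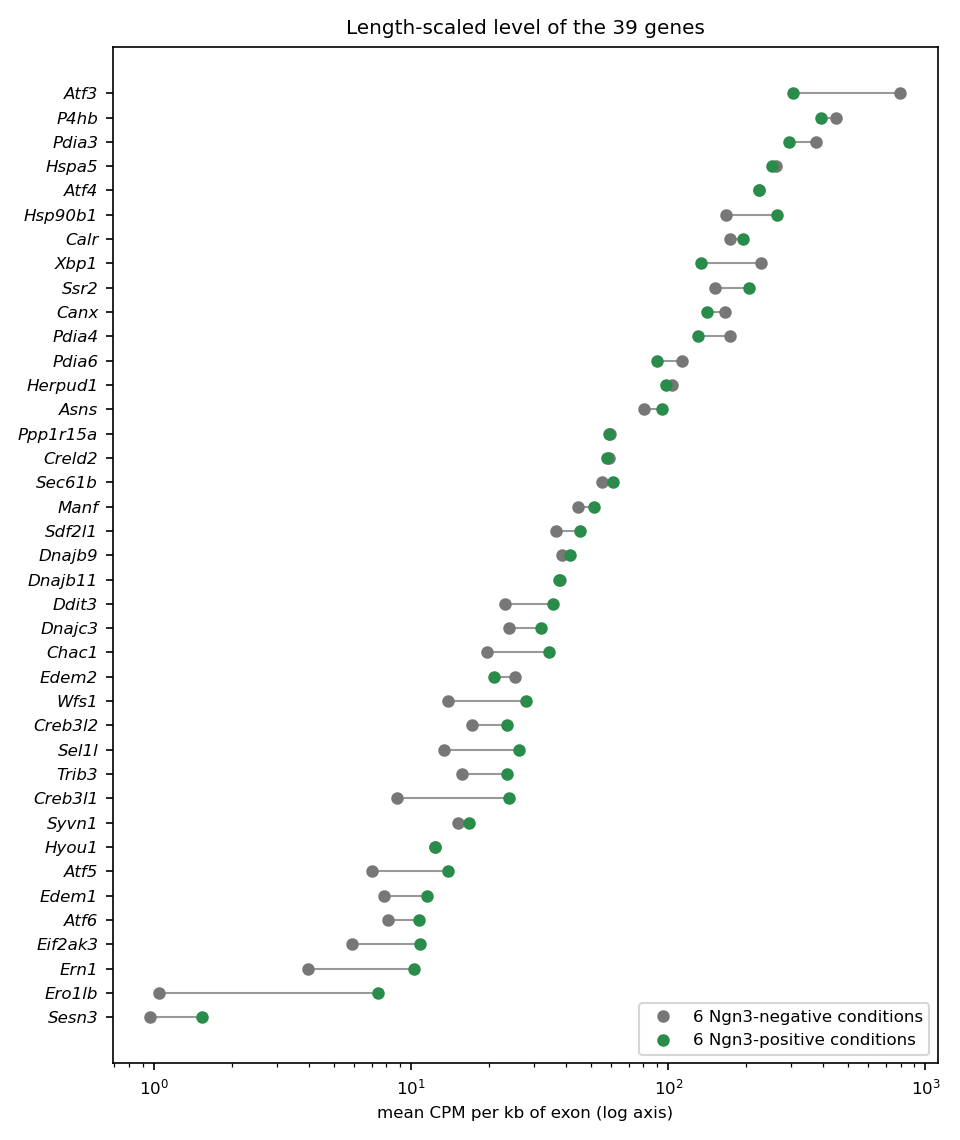
Mean CPM per kb of exon (log axis) of each of the 39 genes over the 6 conditions without Ngn3 (grey) and the 6 with Ngn3 (green), ordered by the mean over all 12. The folding enzymes P4hb, Pdia3 and Hspa5 lie to the right with near-equal points, whereas the points of Atf3, Ern1 and Ero1lb lie apart.

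Other genes of the secretory pathway, from lists that do not contain the 39, were compared in the same way between cells with and without Ngn3. Of 18 genes of ER entry and signal peptide removal, none passed the threshold (median log2 fold change 0.03). Of 16 genes of N-glycosylation, 2 were higher, Alg2, a mannosyltransferase (0.81, adjusted p = 0.0097), and Mogs, the first glucosidase to trim the glycan (0.52, adjusted p = 0.021). Of 18 other ER chaperones and disulfide enzymes, 3 were higher and 1 lower: Pdia5 (1.30, adjusted p = 0.00067), Txndc12 (0.52, adjusted p = 0.032) and Txndc11 (0.55, adjusted p = 0.037) rose, and Dnajc10, an ER reductase, fell (-0.82, adjusted p = 0.0030). Among the other ERAD genes, Ubxn4 was higher (0.42, adjusted p = 0.028). Of 33 other stress response genes, 1 was higher, the amino acid transporter Slc7a5 (1.32, adjusted p = 1.2e-06), and 3 were lower, the stress regulator Nupr1 (-1.31, adjusted p = 0.0007), the serine synthesis enzyme Phgdh (-0.99, adjusted p = 0.0091) and the tryptophan tRNA ligase Wars (-0.52, adjusted p = 0.038). Of 20 genes of transport from the ER to the Golgi, Tmed3 (1.16, adjusted p = 0.00074) and Mia3 (0.51, adjusted p = 0.019) were higher. In each list but that of the other chaperones (22.2%) the share that changed, 0% to 12.5%, was below that of all genes tested.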

How the data were processed

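RNA was sequenced from pools of 50 sorted organoid cells (61 libraries). The authors aligned reads to mm10 with GSNAP, assigned them to genes of Ensembl release 81 with HTSeq 0.5.3p3 and deposited raw counts per gene and library, without normalization. These names are from the methods and the submitters' processing notes, and strand use in counting is not given in the sources used here. Rows for reads not assigned to a gene (18.2% to 42.9% of a library's total) were left out of totals and tests.

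The quality criteria of the study (over 1000000 endogenous counts, under 25% spike-in counts, over 10000 genes detected) kept 58 of the 61 libraries, with 1373561 to 9736403 gene counts, and 3 were left out, the lowest with 241563. The study's methods name a larger number of samples left out, which was not identified here. Technical repeats were summed to 32 samples. A gene was tested when 5 or more libraries had a count of it and its log2(CPM + 1) varied by over 0.001 (variance). CPM values were counts per 1000000 counts of the tested genes, scaled by TMM factors. The 12 conditions were fitted in 1 model without a block with edgeR 4.0.16 (quasi-likelihood test, legacy setting, trended dispersion) in R 4.3.3, and p-values were adjusted by Benjamini-Hochberg over 24004 genes. Standard errors were the log2 fold change divided by the square root of F. Comparisons that use the same condition share its samples, above all Ngn3-Pdx1-MafA. The alternatives were DESeq2 1.42.0, other scalings and filters, all 61 libraries, a replicate block, fits of the compared conditions only, and samples left out. Fits were tested on simulated data. Positions are from GENCODE M21 (GRCm38), and upstream windows are from RefSeq.

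The 39 genes, the other lists and the tests were chosen with earlier results of these data known. Every one of the 39 could be named, with sample values for those past the threshold in any comparison and for Ern1, Eif2ak3, Atf6, Xbp1 and Atf4. From each other pathway list, at most 3 genes in each direction with the lowest adjusted p past the threshold were named. A result of the list of other ERAD genes is not reported here.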

Additional observations from a re-analysis of the deposited data

How the results depend on the processing

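Of 178 counts of called genes among the 39 recomputed under alternatives chosen at the start, 148 stayed within 1.5 times the reported count. The total includes comparisons with a reported count of 0, such as Ngn3 beside Pdx1 and 6SA against WT. A count that stayed at 0 there says little about stability, so the total is not a measure of how stable the calls were. Across all combinations, the 10 calls became 16 under plain library totals and 16 with a replicate block, and all 10 were among the 16 in both cases. Ern1, Ero1lb, Creb3l1 and Atf3 kept their calls under all 11 alternatives chosen at the start and with each of 32 samples left out. With a whole replicate left out (which leaves some conditions 1 sample, taken to vary like the others), the counts were 4 to 12 across all combinations, 0 to 1 for Ngn3 beside Pdx1, 0 to 6 beside MafA, 2 to 7 beside both, 0 to 6 in WT cultures, 1 to 8 in 6SA cultures, 0 to 1 for MafA added, 0 to 4 for Pdx1 added and 0 to 1 for the interaction of Ngn3 and MafA. With 1 sample left out at a time, an alternative added after the data were seen, the counts were 8 to 13 across all combinations, 0 beside Pdx1, 0 to 4 beside MafA, 5 to 7 beside both, 3 to 6 in WT and 5 to 9 in 6SA cultures, 0 to 3 for MafA added and 0 to 5 for Pdx1 added. DESeq2 called 2 beside Pdx1, 7 beside MafA and 3 with MafA added. Without a gene filter the counts were 1 beside Pdx1, 8 beside MafA, 8 in WT cultures, 2 with MafA added, 8 with Pdx1 added and 2 for the interaction of Ngn3 and MafA. With the replicate block they were 11 beside MafA, 10 in WT cultures, 11 in 6SA cultures and 2 with MafA added. For MafA added, edgeR without the legacy setting gave 3, all 61 libraries gave 2 and the compared conditions alone gave 0. For Pdx1 added, plain totals gave 2 and the compared conditions alone gave 1. Most of these counts are given without the matching share of all genes, and so do not show that the 39 moved more than other genes. Atf4 turned from 0.00 to -0.080 with the replicate block and to between -0.22 and 0.21 with a whole replicate left out, and ranged from -0.17 to 0.10 with 1 sample left out. Sdf2l1 turned from 0.10 to between -0.031 and 0.24 with a whole replicate left out and to -0.13 without Ngn3-Pdx1-MafA 6SA replicate 1. The cause was not tested, beyond the smaller number of samples where samples were left out.

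The reported fits had no replicate block. The labels give same-numbered samples the same passage and take cells without Ngn3 from WT or 6SA cultures, but do not say that same-numbered samples came from 1 culture. The correlation of their deviations from the condition means, over 5000 genes, ranged from -0.39 to 0.75 over 14 pairs (median 0.34), was over 0.1 in 12 and was highest for the sample's own number in 12. Where the condition without Ngn3 had 2 samples, their deviations were exact opposites. The comparison with the other number then repeated the sign of the correlation, and the 14 pairs were not independent. The replicate block ended none of the calls reported.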
